A study of Mus musculus with 18 samples.

Results

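The protocadherin genes were taken as all genes whose platform symbol begins with Pcdh on a probe set with a single symbol. This gave 62 probe sets of 35 genes, out of 45101 probe sets on the array and 18194 genes with a single-symbol probe set. Of the 35 genes, 22 were clustered beta genes (Pcdhb, 28 probe sets) and 13 were others (34 probe sets). The symbols decided membership, but the family itself was chosen by a measured value, since Pcdhb9 had been among the genes called in aged unimpaired against young hippocampus. Pcdhb9 differences, and all protocadherin differences in that comparison, are therefore given as a description without a p-value. Counts of calls that include them are a description too. Another 6 probe sets list several clustered alpha genes each and are not members.

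Mouse hippocampus was measured in 18 samples, 1 array per sample. They form 3 groups of 6: aged impaired and aged unimpaired, named for their spatial memory, and young, also labelled as unimpaired. Aged impaired and young samples thus differ in age and memory state together, and all samples are whole hippocampus with no agent, strain, genotype or age in weeks named in the labels. Whether the samples of a group are separate animals is not stated, so the p-values cover the spread between samples, which may be technical.

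Protocadherins are adhesion molecules of the cadherin superfamily and are abundant in neurons. The clustered alpha, beta and gamma genes lie side by side on a chromosome, each neuron uses a varied subset of them, and the proteins on its surface bind like proteins on other membranes, by which neurites of the same cell recognise and avoid each other. Each beta gene is a single exon with its own promoter, and the choice of promoter depends on DNA methylation, CTCF and cohesin. The non-clustered protocadherins are scattered over the genome and act in synapse formation, axon growth and cell sorting.

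Levels are log2 of the array signal scaled to a common trimmed mean of 500 plus an offset of 16, so fold changes are on that scale and understate the change of dim probe sets. Differences carry the standard error from the fit, and means the SD. Array medians of the deposited signal were 23.5 to 30.5, and no array stood apart (best correlation with another array 0.976 to 0.983 over 27022 tested probe sets). All 8 marker genes of hippocampal excitatory neurons were tested, the dimmest being Prox1 at 7.90 to 8.86. The summed scaled signal of 11 choroid plexus markers varied widely within groups. It ran from 17810 to 99427 in aged impaired, from 9148 to 84664 in aged unimpaired and from 20542 to 100846 in young samples. Mean sums were 62525, 42380 and 67936 in the same order. All 11 had a lower mean in aged unimpaired than in aged impaired samples (median difference of impaired from unimpaired 0.87). All 11 were also lower in aged unimpaired than in young samples (median -0.87), and none was called.

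Of the 62 probe sets, 43 passed the filter on dim probe sets, covering 16 beta genes and 11 other genes. The filter fell at a mean of 5.92. Pcdhb8 lay just inside it (mean 5.95), and a Pcdhb4 probe set lay just outside it (mean 5.91). The 8 genes with no tested probe set were Pcdhb1, Pcdhb2, Pcdhb4, Pcdhb6, Pcdhb14, Pcdhb18, Pcdh12, which is made by endothelial cells, and Pcdhgc4, a gamma isoform. Their 12 probe sets had deposited signals of 0.4 to 27.9. With no filter, 0 of these 12 were called in any comparison with limma, and 3 had an unadjusted p under 0.05 in at least 1 comparison. A tested probe set could pass through a high level in 1 group, so counts over the tested members describe those members alone.

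Pcdhb9 and Pcdhb3 stood higher in both aged groups than in young hippocampus, by about the same amount in each, and did not differ detectably between the aged groups. Both encode beta protocadherins and carry 1 probe set each. Pcdhb9 had a lowest, median and highest level of 10.61, 10.79 and 11.13 in aged impaired samples, 10.73, 10.81 and 11.02 in aged unimpaired samples, and 9.81, 10.04 and 10.15 in young samples. All 12 aged samples lay above all 6 young samples, while the aged groups overlapped. In group means this was 10.83 ± 0.19 in aged impaired, 10.82 ± 0.10 in aged unimpaired and 10.01 ± 0.14 in young samples (SD, n = 6 each).

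The Pcdhb9 difference from young was 0.82 ± 0.09 in aged impaired samples (1.77-fold) and 0.82 ± 0.09 in aged unimpaired samples (1.76-fold). Both use the same young arrays. Between aged impaired and aged unimpaired samples the difference was 0.00 ± 0.09, with a 95% interval of -0.19 to 0.19. In the deposited signal, Pcdhb9 ran from 464.8 to 667.8 in aged impaired, from 505.7 to 618.5 in aged unimpaired and from 264.7 to 335.3 in young samples.

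Pcdhb3 had a lowest, median and highest level of 8.54, 8.92 and 9.07 in aged impaired samples, 8.61, 8.82 and 9.11 in aged unimpaired samples, and 8.13, 8.26 and 8.35 in young samples. Here too every aged sample lay above every young sample. Group means were 8.87 ± 0.20 in aged impaired, 8.85 ± 0.18 in aged unimpaired and 8.26 ± 0.09 in young samples (SD, n = 6 each). Pcdhb3 rose in aged impaired against young samples by 0.61 ± 0.10 (1.53-fold, limma adjusted p = 0.00277 over all tested probe sets). Its difference in aged unimpaired against young samples was 0.59 ± 0.10 (1.50-fold). Between the aged groups it was 0.02 ± 0.10, with a 95% interval of -0.18 to 0.22.

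**Figure D1:**
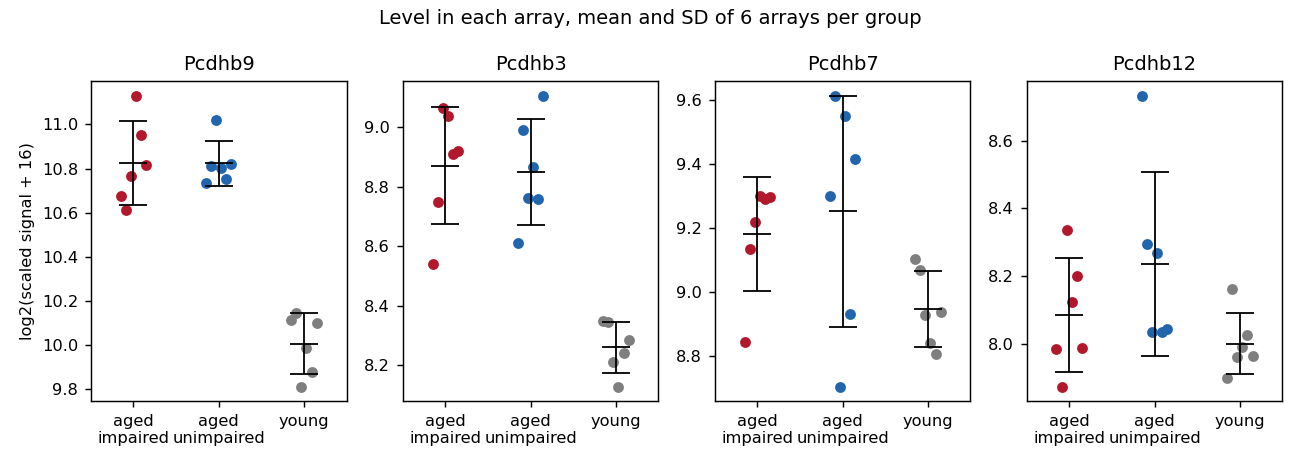
Level of Pcdhb9, Pcdhb3, Pcdhb7 and Pcdhb12 on the log2(scaled signal + 16) axis, with a dot for each array and bars for the mean and SD of the 6 arrays of aged impaired, aged unimpaired and young hippocampus. For Pcdhb9 and Pcdhb3 all aged arrays lie above all young arrays, while for Pcdhb7 and Pcdhb12 the groups overlap.

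In aged impaired against young samples, 2 of 43 protocadherin probe sets were called at an adjusted p under 0.05, both higher, where 1.63% of all tested probe sets were called. The same 2, Pcdhb9 and Pcdhb3, were the members whose groups did not overlap, where 2.01% of all tested probe sets did not. In aged unimpaired against young samples 2 of 43 were called, again Pcdhb9 and Pcdhb3, where 0.137% of all tested probe sets were called, and their groups alone did not overlap, where 0.766% of all did not. With both aged groups averaged and set against young, 2 of 43 were called, where 0.947% of all were, and the groups of the same 2 did not overlap, where 0.303% of all did not. Nothing is read from these counts against the young samples, because Pcdhb9 singled out the family and all of them use the same young arrays. Of the other 42 probe sets, 1 was called in each of them, that of Pcdhb3. In aged unimpaired against young samples the call of Pcdhb3 ended without the filter and with the sample number as a block, which left Pcdhb9 as the 1 call.

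Markers of microglia, the brain's resident immune cells, moved with the same groups. The summed scaled signal of the 8 marker genes ran from 14513 to 19962 in aged impaired, from 12926 to 18296 in aged unimpaired and from 9980 to 11697 in young samples, and none was at 0. Of these 8 genes, 5 rose in aged impaired and 2 in aged unimpaired against young samples, where 1.90% and 0.145% of all tested genes were called. A higher mean than in young samples was seen in 7 of 8 in aged impaired (median 0.59) and 8 of 8 in aged unimpaired samples (median 0.45). P2ry12 had a lower mean in aged impaired samples (-0.08 ± 0.11). Some markers of other cells were called as well in aged impaired against young samples. Mog (0.46 ± 0.08, adjusted p = 0.00969) and Mag (0.63 ± 0.14, adjusted p = 0.0249), 2 of 6 oligodendrocyte markers, and Gfap (0.77 ± 0.14, adjusted p = 0.00992), 1 of 6 astrocyte markers, rose with limma. Gpr17, 1 of 3 markers of oligodendrocyte precursors, fell (-0.71 ± 0.12, adjusted p = 0.00532). The list medians were 0.44 for oligodendrocytes, 0.03 for astrocytes and -0.04 for oligodendrocyte precursors. A higher mean was seen in 5 of 6, 4 of 6 and 1 of 3 of their genes. No marker of these 3 lists was called in aged unimpaired against young samples. No marker of endothelial and mural cells was called in either comparison, though all 6 had a higher mean in aged unimpaired than in young samples (median 0.17). In aged impaired samples 5 of 6 had a higher mean than in young samples (median 0.20), and Cldn5 a lower one (-0.36 ± 0.12). Of 8 excitatory neuron markers 0 were called in either comparison (medians -0.12 in aged impaired and 0.00 in aged unimpaired samples). Of 6 interneuron markers 0 were called (medians 0.02 and 0.08). Of 5 markers of neighbouring forebrain (cortex, striatum, thalamus) 0 were called. Among these, 0 had a higher mean in aged impaired (median -0.26) and 1 in aged unimpaired samples (median -0.08) than in young samples. The part of these other cells and regions in the Pcdhb9 and Pcdhb3 differences was not tested. A covariate was made from the mean of the 8 microglia markers alone, chosen after seeing the data. With it the Pcdhb9 difference was 1.04 ± 0.16 in aged impaired and 0.98 ± 0.13 in aged unimpaired against young samples. That of Pcdhb3 was 0.63 ± 0.18 in aged impaired and 0.60 ± 0.15 in aged unimpaired against young samples. Without the covariate these were 0.61 ± 0.10 and 0.59 ± 0.10. With it Pcdhb3 was not called (limma adjusted p = 0.239 in aged impaired). The microglia sums of young and aged samples did not overlap, so the covariate nearly follows age and this fit cannot tell microglia from age. In that fit 7 and 8 probe sets of the whole array were called against young in the aged impaired and aged unimpaired groups. In whole tissue, more cells of a type and more RNA per cell cannot be told apart.

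**Figure D2:**
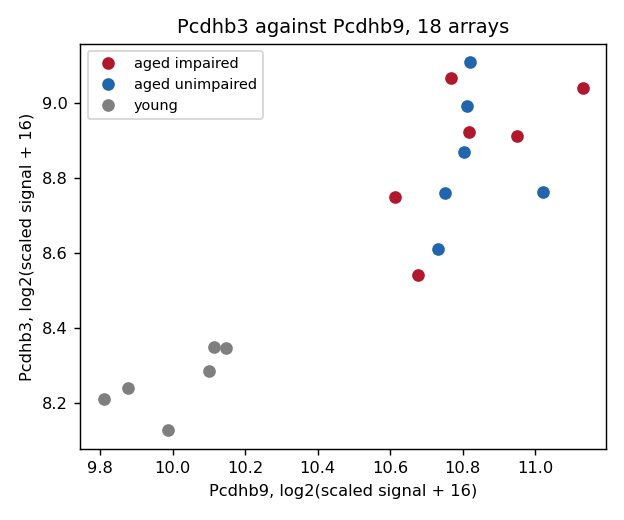
Level of Pcdhb3 (vertical axis) against Pcdhb9 (horizontal axis) in each of the 18 arrays, both on the log2(scaled signal + 16) scale, coloured by group. The 6 young arrays lie below and to the left of the 12 aged arrays, and the aged impaired and aged unimpaired arrays are mixed.

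None of the other tested beta genes was called, though some varied too much for a like rise to be excluded. Along the cluster, ordered by the RefSeq gene table of GRCm38.p6, Pcdhb3 and Pcdhb9 hold places 3 and 9 of 22, and tested genes that were not called lie between and around them. Pcdhb8 and Pcdhb10, the neighbours of Pcdhb9, differed from young by 0.15 ± 0.37 and 0.00 ± 0.23 in aged impaired samples and by 0.66 ± 0.37 and 0.07 ± 0.23 in aged unimpaired samples. Pcdhb2 and Pcdhb4, the neighbours of Pcdhb3, had no tested probe set. With no filter, the dim Pcdhb4 probe sets went opposite ways against young samples. The one just outside the filter differed by 0.65 in aged impaired and 0.74 in aged unimpaired samples, the other by -0.78 and -0.35. Pcdhb2 differed by -0.02 and 0.43, and none of these was called. The probe sequences were not used here, and beta genes resemble each other closely, so signal from a related gene on a probe set was not measured.

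**Figure D3:**
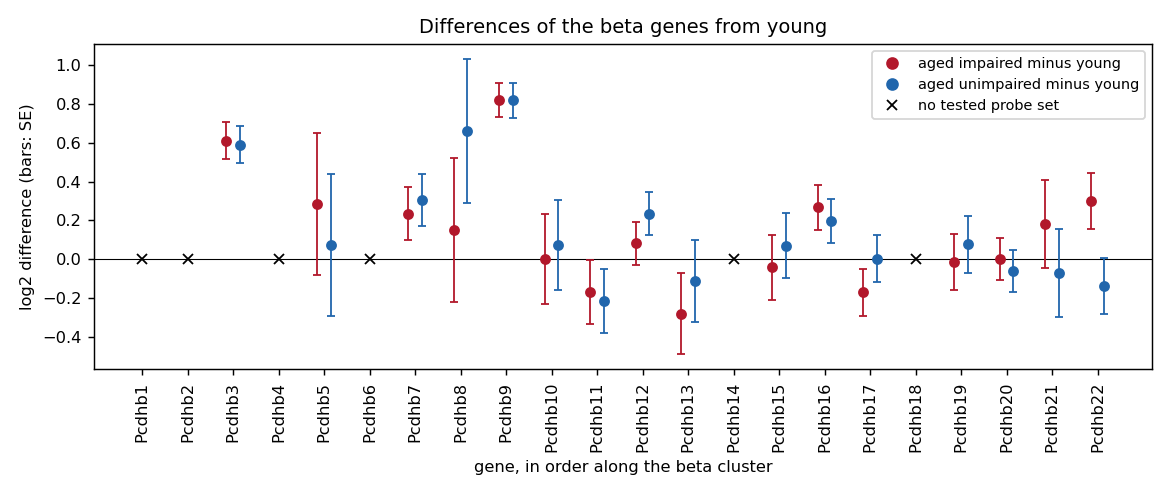
Log2 difference from young, with its standard error, of each beta gene in aged impaired and aged unimpaired samples, in order along the cluster, with crosses for genes without a tested probe set. Pcdhb3 (0.61 and 0.59) and Pcdhb9 (0.82 and 0.82) stand above 0 in both, while most others have error bars that reach or come close to 0.

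Pcdhb7 and Pcdhb12 are 2 of the further beta genes with a higher mean in both aged groups. Pcdhb5, Pcdhb8 and Pcdhb16 had one as well, and so did Pcdhb10, by a very small margin in aged impaired samples. Pcdhb7 had a lowest, median and highest level of 8.84, 9.26 and 9.30 in aged impaired, 8.70, 9.36 and 9.61 in aged unimpaired, and 8.81, 8.93 and 9.10 in young samples. The groups overlapped, since the lowest aged unimpaired sample lay below every young sample. Its difference was 0.23 ± 0.14 in aged impaired and 0.31 ± 0.14 in aged unimpaired against young samples. Pcdhb12 had levels of 7.87, 8.06 and 8.34 in aged impaired, 8.03, 8.16 and 8.73 in aged unimpaired, and 7.90, 7.98 and 8.16 in young samples. Its difference was 0.08 ± 0.11 in aged impaired and 0.23 ± 0.11 in aged unimpaired against young samples, and the groups overlapped.

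Pcdhb16 and Pcdhb22 had the lowest unadjusted p of the beta genes after Pcdhb9 and Pcdhb3 in aged impaired against young samples. On its probe set of highest mean, Pcdhb16 differed by 0.27 ± 0.11 in aged impaired samples (limma adjusted p = 0.259) and by 0.20 ± 0.11 in aged unimpaired samples. A dimmer Pcdhb16 probe set gave 0.01 ± 0.14 and 0.05 ± 0.14 for the same comparisons. Pcdhb22, the last gene of the cluster, differed from young by 0.30 ± 0.14 in aged impaired samples (adjusted p = 0.313) and by -0.14 ± 0.14 in aged unimpaired samples.

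The remaining tested beta genes differed from young in either direction. Pcdhb5 differed by 0.28 ± 0.36 in aged impaired and by 0.07 ± 0.36 in aged unimpaired samples. Pcdhb11 (-0.17 ± 0.16 and -0.21 ± 0.16), Pcdhb13 (-0.28 ± 0.21 and -0.11 ± 0.21) and Pcdhb17 (-0.17 ± 0.12 and 0.00 ± 0.12) had a lower or equal mean in aged impaired and aged unimpaired against young samples. Pcdhb15 (-0.04 ± 0.17 and 0.07 ± 0.17), Pcdhb19 (-0.01 ± 0.14 and 0.08 ± 0.14) and Pcdhb20 (0.00 ± 0.11 and -0.06 ± 0.11) lay near 0 in both. Pcdhb21 had a higher mean in aged impaired (0.18 ± 0.23) and a lower one in aged unimpaired samples (-0.07 ± 0.23). None of these was called in any comparison. The second probe set of Pcdhb21 gave 0.05 ± 0.27 and -0.23 ± 0.27.

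Over the 16 tested beta genes, the median difference was 0.12 in aged impaired and 0.07 in aged unimpaired against young samples. Over all 13121 tested genes it was 0.00 in aged impaired and -0.01 in aged unimpaired samples. A mean above young was seen in 11 of 16 beta genes in either comparison. Without Pcdhb9 and Pcdhb3 the medians of the other 14 were 0.04 in aged impaired and 0.07 in aged unimpaired samples, each with 9 of 14 above young. The interquartile range over all genes ran from -0.11 to 0.10 in aged impaired and from -0.10 to 0.07 in aged unimpaired samples. Single samples moved these small medians. In aged impaired against young samples the median of the beta genes was 0.03 without young replicate 2, 0.04 without young replicate 1, 0.06 without aged impaired replicate 5 and 0.08 without aged impaired replicate 6. In aged unimpaired against young samples it was 0.00 without aged unimpaired replicate 6 and 0.03 without young replicate 2. With a filter of 60%, which keeps only the brighter genes, Pcdhb9 and Pcdhb3 among them, the beta medians were 0.23 in both. Each was the value of a single gene, Pcdhb7 in aged impaired and Pcdhb12 in aged unimpaired samples.

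Spread within groups differed widely among beta genes. The pooled SD of a gene within groups was lowest for Pcdhb9 (0.15) and highest for Pcdhb8 (0.69), with a median of 0.26 over the 16 genes. Among the 11 other genes it ran from 0.16 for Pcdh19 to 0.32 for Pcdh1, with a median of 0.18.

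**Figure D4:**
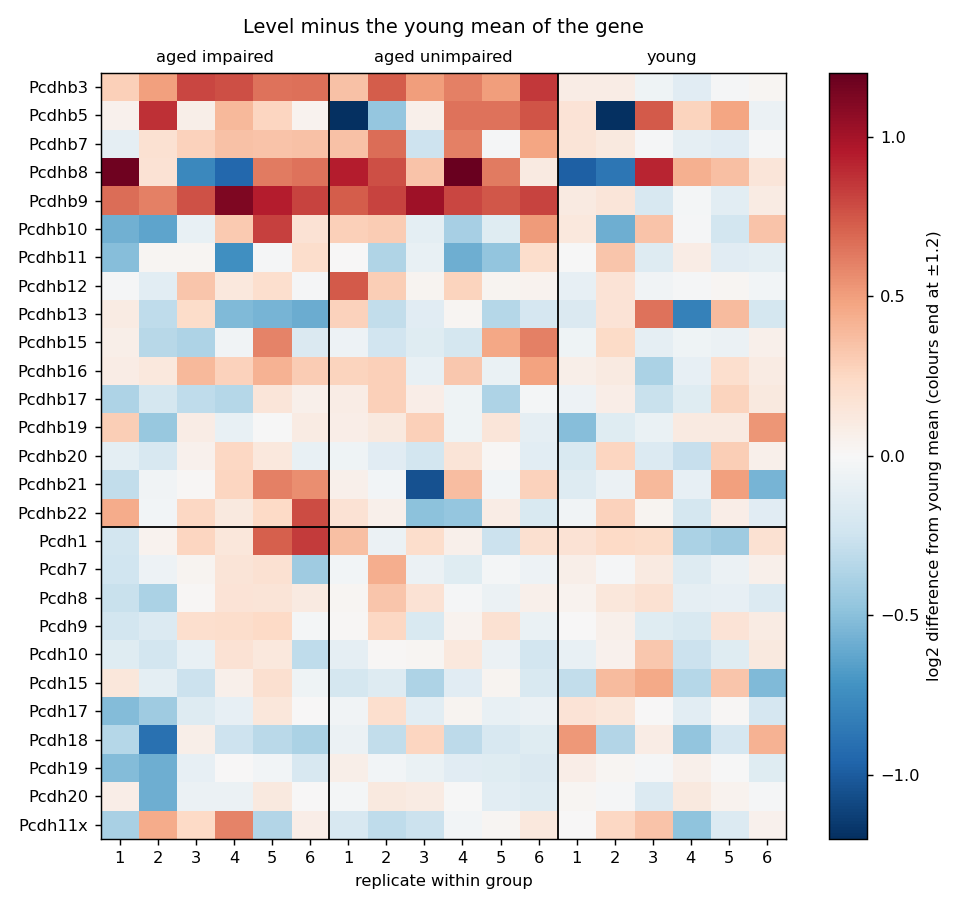
Level of each tested protocadherin gene in each array minus the gene's mean in young arrays (colour, log2 scale), with aged impaired, aged unimpaired and young arrays from left to right, beta genes in cluster order above the line and other genes below it. Pcdhb3 and Pcdhb9 are above the young mean in all 12 aged arrays. Pcdhb5 varies strongly in aged unimpaired and young arrays (SD 0.79 and 0.82), and Pcdhb8 in aged impaired and young arrays (SD 0.84 and 0.76).

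The series description sets aged animals with poor memory against aged animals with good memory. In aged impaired against aged unimpaired samples, 0 of 43 protocadherin probe sets were called with limma, where 0.0111% of all tested probe sets were called, and 1 of 43 had an unadjusted p under 0.05, beside 2185 of 27022. No member had groups that did not overlap, where 0.525% of all tested probe sets did not. The 1 probe set was that of Pcdhb22, with a lowest, median and highest level of 6.86, 7.13 and 7.67 in aged impaired and 6.40, 6.82 and 7.06 in aged unimpaired samples, and 6.67, 6.88 and 7.17 in young samples. Its difference between the aged groups was 0.44 ± 0.14 (adjusted p = 0.428), with aged impaired higher and the groups overlapping. The median difference was -0.03 over the 16 beta genes, -0.07 over the 11 other genes and 0.01 over all genes. Leaving out 1 sample at a time, the beta median ran from -0.07 without aged impaired replicate 4 to 0.04 without aged impaired replicate 1, and that of the other genes from -0.11 without aged impaired replicate 5 to 0.00 without aged impaired replicate 6.

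Among the non-clustered genes, none was called in any of the comparisons. Pcdh19, an X-linked gene whose human form is mutated in an epilepsy of girls, had the lowest unadjusted p on a probe set of highest mean. Its levels were 10.97, 11.41 and 11.56 in aged impaired, 11.38, 11.45 and 11.63 in aged unimpaired, and 11.41, 11.57 and 11.63 in young samples. The difference from young was -0.24 ± 0.10 in aged impaired (limma adjusted p = 0.234) and -0.08 ± 0.10 in aged unimpaired samples. Its other 2 probe sets also had a lower mean in aged impaired samples, at -0.10 ± 0.10 and -0.29 ± 0.13.

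Pcdh18 had a difference of -0.35 ± 0.18 in aged impaired and -0.13 ± 0.18 in aged unimpaired against young samples, and Pcdh17, which acts at synapses, had -0.18 ± 0.11 and -0.01 ± 0.11. Pcdh10, linked in mice to the removal of synapses, had -0.08 ± 0.10 and -0.04 ± 0.10 on the brightest of its 6 tested probe sets. The dimmer Pcdh10 probe sets went either way in aged impaired samples. The lowest gave -0.29 ± 0.11 (limma adjusted p = 0.210), and the others -0.23 ± 0.13, -0.11 ± 0.23, 0.10 ± 0.15 and 0.16 ± 0.15. Pcdh8, whose product arcadlin is induced by neuronal activity and drives the uptake of N-cadherin from the synapse, had -0.03 ± 0.10 in aged impaired and 0.09 ± 0.10 in aged unimpaired samples. That probe set carries the x suffix of possible cross-matching, and the second Pcdh8 probe set gave -0.26 ± 0.13 and -0.09 ± 0.13.

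The remaining non-clustered genes differed from young in either direction. Pcdh1, the highest of the 11 in aged impaired samples, differed by 0.30 ± 0.18 in aged impaired and 0.08 ± 0.18 in aged unimpaired samples, and Pcdh7 by -0.06 ± 0.11 and 0.02 ± 0.11. Pcdh9 differed by 0.04 ± 0.10 in aged impaired and by 0.04 ± 0.10 in aged unimpaired samples, Pcdh11x by 0.10 ± 0.17 and -0.11 ± 0.17, and Pcdh20 by -0.09 ± 0.10 and -0.02 ± 0.10. Pcdh15, a part of the tip link of hair cells in the inner ear, differed by -0.01 ± 0.15 and -0.17 ± 0.15. Over the 11 genes the median difference was -0.06 in aged impaired and -0.02 in aged unimpaired against young samples. Leaving out 1 sample at a time, it ran from -0.11 without aged impaired replicate 5 to 0.01 without aged impaired replicate 2 in aged impaired samples, and from -0.06 without aged unimpaired replicate 2 to 0.00 without aged unimpaired replicate 5 in aged unimpaired samples. With the microglia covariate it was 0.18 in aged impaired and 0.17 in aged unimpaired samples.

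**Figure D5:**
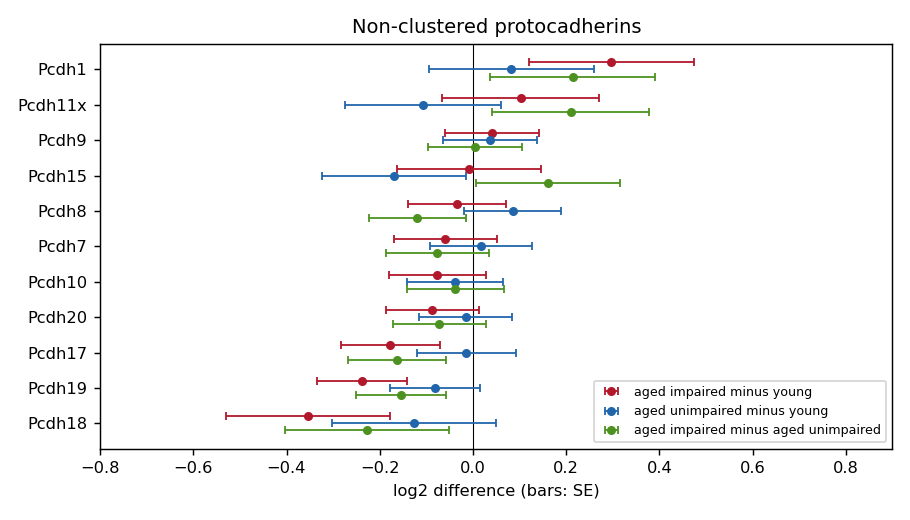
Log2 difference with its standard error of the 11 tested protocadherin genes outside the beta cluster, for aged impaired minus young, aged unimpaired minus young and aged impaired minus aged unimpaired. The values lie between -0.35 (Pcdh18, aged impaired minus young) and 0.30 (Pcdh1, aged impaired minus young), and none was called.

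Of the 6 probe sets that list several alpha genes, 5 were tested and 0 were called with limma in any of the aged comparisons. Their differences from young ran from -0.55 to 0.00 in aged impaired and from -0.58 to 0.08 in aged unimpaired samples. The brightest, which lists 14 alpha genes, had 0.00 in aged impaired and 0.08 in aged unimpaired samples.

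Genes that work with the protocadherins were counted in lists taken from textbook knowledge. Of 24 tested cadherins outside the family, 1 fell and 0 rose in aged impaired against young samples, with a median difference of -0.10, where 1.90% of all tested genes were called. It was Cdh9, an adhesion molecule of synapses between dentate and CA3 neurons, at -0.57 ± 0.10 (means 10.05 in aged impaired, 10.43 in aged unimpaired and 10.62 in young samples, limma adjusted p = 0.00689). In aged unimpaired against young samples 0 of 24 were called, with Cdh20 lowest in p (-0.35 ± 0.08, adjusted p = 0.159) and Cdh9 at -0.19 ± 0.10. With both aged groups averaged, Cdh9 (-0.38 ± 0.09, adjusted p = 0.0456) and Cdh20 (-0.32 ± 0.07, adjusted p = 0.0474) fell against young samples, where 1.19% of all tested genes were called. Between the aged groups Cdh9 differed by -0.38 ± 0.10 (adjusted p = 0.305) and 0 of 24 were called, where 0.00762% of all tested genes were.

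Of 21 tested chromatin and methylation factors that act on the clusters, 0 were called with limma in any comparison. At an unadjusted p under 0.05 there were 1, 1 and 2 genes in aged impaired against aged unimpaired, aged unimpaired against young and aged impaired against young samples. Lowest in p against young were Wapl, which releases cohesin from chromatin (0.19 ± 0.08), and Lrif1 (-0.25 ± 0.12) in aged impaired, and Dnmt3a, a DNA methyltransferase (-0.20 ± 0.10), and Setdb1, a histone methyltransferase (-0.18 ± 0.08), in aged unimpaired samples. Of 22 tested signalling partners and proteases, 0 were called in any comparison, with 4, 2 and 1 genes at an unadjusted p under 0.05 in the same order. Lowest in p were Marcks, a membrane-bound actin regulator (-0.24 ± 0.07), and Wasf3 (-0.33 ± 0.17) in aged impaired, and Wasf3 (-0.47 ± 0.17) and Ncstn, a subunit of gamma-secretase (-0.23 ± 0.11), in aged unimpaired against young samples.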

How the data were processed

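The authors deposited 1 intensity per probe set and array, linear, from biotin-labelled total RNA (per the labels' protocols). The submitters' processing notes name MAS5, and its version is not given in the sources used here. Precision is limited by the number of arrays. Signals were rescaled per array to a trimmed mean of 500 with 2% of values trimmed at each end, and log2 was taken after adding 16. The 64 control probe sets and the 40% of other probe sets with the lowest mean were left out, which left 27022.

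The fit, checked on simulated data, used limma 3.58.1 (R 4.3.3) with a mean for each of the 3 groups over the 18 arrays and empirical Bayes moderation. Tests were 2-sided, with Benjamini-Hochberg adjustment over all tested probe sets. A gene is given on its tested probe set of highest mean. Named were all tested beta genes, every called protocadherin probe set, the 10 other genes of lowest unadjusted p (the eleventh, Pcdh9, was added for completeness), and the called genes or the 2 of lowest p of each pathway list. Symbols come from the platform annotation, and all 62 probe sets matched the RefSeq table of GRCm38.p6. The members and lists were chosen with earlier results of these data known. Same-numbered samples did not deviate together (correlations -0.25 to 0.10 over 18 pairs), so the numbers were not used as pairs. The settings varied were the normalization (quantile), the offset (1 or 64), the filter (none or 60%), a replicate block, a fit of only the groups compared, trended and robust moderation, covariates for RNA quality, choroid plexus and microglia markers, and leaving out each sample.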

Additional observations from a re-analysis of the deposited data

Results flagged for a closer look

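Some single samples stood apart from the other 5 of their group by more than Dixon's limit for 6 samples, the gap to the nearest other sample relative to the group's range. Of 78 groups examined 7 did so, or 8.97%, where chance flags about 1 in 20. High were aged unimpaired replicate 3 for Pcdhb9 (11.02, with the next sample at 10.82), aged unimpaired replicate 1 for Pcdhb12 (8.73) and aged unimpaired replicate 2 for Pcdh7 (10.41). Low were aged unimpaired replicate 3 for Pcdhb21 (6.22), aged impaired replicate 2 for Pcdh20 (11.17), aged impaired replicate 1 for Pcdhb7 (8.84) and young replicate 2 for Pcdhb5 (4.79).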

How the results depend on the processing

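In aged unimpaired against young samples the count of called protocadherin probe sets was 1 without the filter, 1 with the replicate block and 1 with the microglia covariate, in place of 2, as the call of Pcdhb3 ended. With the microglia covariate, which leaves few calls on the whole array, it was also 1 in aged impaired and 1 in both aged groups against young samples, and the median of the 11 genes outside the beta cluster was 0.18 and 0.21 in these comparisons, in place of -0.06 and -0.05. The replicate block changed no other call of a named gene. Leaving out each sample kept the counts at 2 against young and at 0 between the aged groups. Nothing is read from the counts against young, since Pcdhb9 singled out the family. The Pcdhb9 difference from young ran from 0.76 to 1.04 in aged impaired and from 0.77 to 0.98 in aged unimpaired samples over 23 alternatives each, and that of Pcdhb3 from 0.54 to 0.68 and from 0.52 to 0.64. Pcdhb3 had adjusted p from 8.25e-04 to 0.239 in aged impaired samples. The beta median in aged unimpaired against young samples ran from 0.00 without aged unimpaired replicate 6 to 0.23 with the filter of 60%. The fit of only the groups compared does not apply to the mean of both aged groups. The 12 probe sets of the genes left out by the filter had deposited signals of 0.4 to 27.9, and signal over background was not measured here.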
